A study of Mus musculus with 16 samples.

Results

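The ER- luminal-like cells of the pubertal mouse mammary gland were compared with the ER+ luminal-like cells dissected and sorted with them. The 203 ER- luminal-like cells are 15.4% of the 1317 cells that passed the filters and 31.5% of the 644 luminal-like cells, the rest being ER+. They were chosen by the measured counts of marker genes. A cell was placed in the class whose marker list had the highest mean z-score of log-normalized counts among 6 lists, for ER-, ER+, basal, fibroblast, myeloid and endothelial cells. The ER- list was Krt18, Elf5, Kit, Wfdc18, Ltf and Aldh1a3, and the ER+ list was Krt18, Esr1, Pgr, Prlr, Cited1 and Foxa1. Since these measured values chose the cells, every difference between the 2 classes is given as a description with no test, and tests were kept for location, which the lists did not use.

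The luminal layer of the mammary gland holds cells with estrogen receptor, which sense estrogen, progesterone and prolactin and signal to their neighbours through secreted factors such as amphiregulin. It also holds cells without that receptor, among them the alveolar progenitors that depend on the Ets factor Elf5 and the receptor tyrosine kinase Kit and that give rise to milk-secreting cells. ER- progenitors are known to produce some milk and antimicrobial proteins, such as lactoferrin (Ltf), before any pregnancy.

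Single fragments of nipple (4), duct (6) and terminal end bud (TEB, the growing tip of the pubertal duct, 6) came from C57BL/6 mice, which the study describes as 5-week-old K14-Cre/R26-mTmG animals in its figure and as Krt14-cre/mTmG or wild-type animals in its methods. The labels name no treatment, and the Krt14 promoter that drives the Cre is active in basal cells. The labels do not name the mouse of each fragment, so p-values measure the spread between fragments, which may be less than that between mice. All nipple labels share a leading number that no duct or TEB label has, and what it stands for is not given in the sources used here, so it cannot be told apart from the nipple location. Cells were sorted singly into plates, and the 3' ends of transcripts were counted with unique molecular identifiers (UMIs), so 1 UMI stands for 1 captured molecule.

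The fragments gave 83 to 93 deposited cells each and 1856141 to 5233122 UMIs in all. Passing cells had a median of 30160 UMIs and 3211 genes. The ER- cells were shallower, with a median of 27796 UMIs and 3087 genes against 38732 UMIs and 3575 genes in ER+ cells, and the gap was widest in nipple (20506 against 46374 UMIs). Counts were summed per fragment and class where both classes had at least 5 cells. TEB fragment T43 had 3 ER- cells and was left out of all sums but those of the location test within ER+ cells. The classes were thus compared in 15 fragments (4 nipple, 6 duct and 5 TEB). In these, the ER- sums held 159394 to 867672 UMIs from 5 to 20 cells, and the ER+ sums 301702 to 1834989 UMIs from 7 to 43 cells. TEB fragment T31 had the fewest ER- cells among these, 5. Levels are counts per 1e6 UMIs (CPM) scaled by the TMM method. The 95 well barcodes were all reused across fragments, as plates share them, and 0 cells had counts identical to those of another.

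The classes lie on either side of equal scores by construction, and the distance from the border is given as a description. The median margin between a cell's ER- score and its next highest score was 1.34, and 11 of the 203 cells had a margin under 0.25. The member nearest the border had an ER- score of 1.37 against a myeloid score of 1.34, and the next 2 had 0.248 against 0.184 and 0.140 against 0.0401 for ER+. Just outside, 3 cells placed in the ER+ class had ER- scores of 0.623, 0.905 and 0.502 against ER+ scores of 0.626, 0.925 and 0.546. Of the 203 members, 34 had a UMI of all 5 ER- markers other than Krt18, 71 had 4 of them, 71 had 3, 25 had 2 and 2 had 1.

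**Figure D1:**
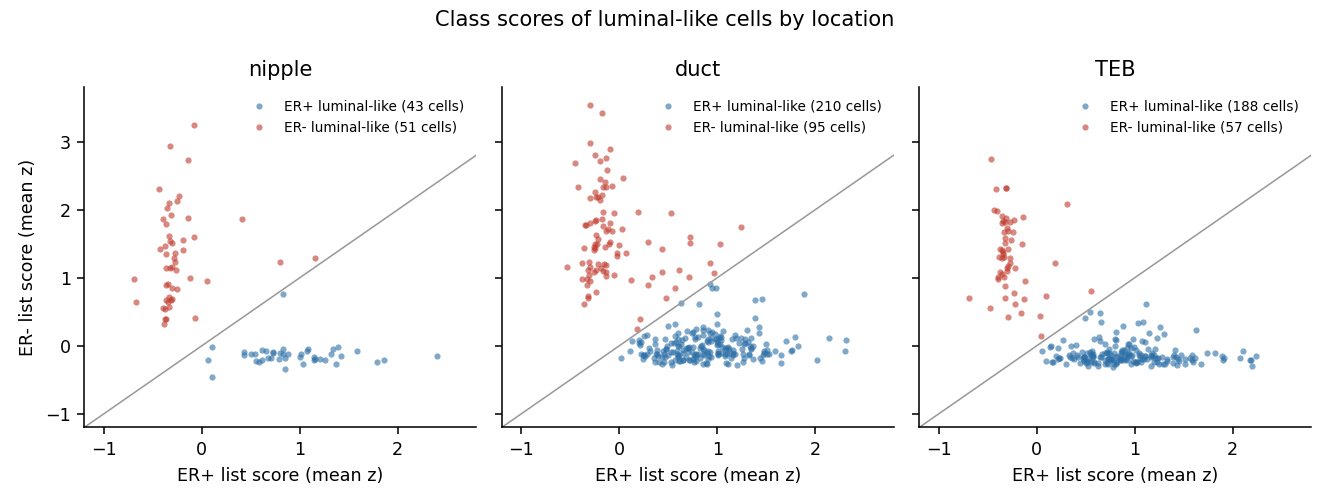
Each point is 1 luminal-like cell, with its ER+ list score on the x axis and its ER- list score on the y axis (both mean z-scores), in nipple, duct and TEB; the grey line marks equal scores. The 51 nipple, 95 duct and 57 TEB ER- cells lie above the line and the ER+ cells below it, as the rule sets.

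With genes outside all marker lists, 92.6% of the 10 nearest luminal-like cells of an ER- cell, taken from other fragments, were also ER-, where the numbers of cells alone would give 31.4%. In a clustering of all cells, 179 of the 203 ER- cells fell in the 1 cluster named from the ER- markers. Another 20 fell in those named from the ER+ markers, while 0 ER+ cells fell in the ER- cluster. Of the ER+ cells, 398 fell in clusters named from the ER+ markers and 41 in the cluster named from the endothelial markers. That cluster also held 17 endothelial and 12 myeloid cells. The neighbour shares and the clustering are descriptions, since marker genes vary together with many others. The label was checked with marker genes outside the lists. Csn3, Trf and Lcn2 had higher levels in ER- cells in at least 14 of 15 fragments, as had Cd14 and Ehf, while Cd55 was higher in 11 and Itga2 in 12. Of the ER+ check genes, Ly6a, Prom1 and Areg were higher in ER+ cells in every fragment and Wnt4 in 14, and Tnfsf11 had only 3 UMIs, all in ER+ cells. In the wider list of progenitor genes, 13 of 14 fitted members had a positive log2 difference, and the exception, the adhesion gene Alcam, was higher in ER+ cells in every fragment, with 127 to 308 CPM against 0 to 64.9.

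The markers that chose the cells differed as follows. Kit had 34.9 to 283 CPM in ER- cells (median 119) and 0 to 16.2 in ER+ cells (median 0.656). Wfdc18, a whey acidic protein family gene, had 4661 to 12355 CPM (median 7812) against 71.9 to 1097 (median 221). Ltf had 169 to 1880 CPM (median 352) against 0 to 106 (median 2.77). In none of these 3 did the classes overlap. The fitted log2 differences, ER- minus ER+, were 6.33 ± 0.41 (SE) for Kit, 4.96 ± 0.31 for Wfdc18 and 6.22 ± 0.45 for Ltf.

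Elf5 was a low-count gene even in ER- cells, with 3.49 to 104 CPM (median 25.5), and ER+ cells had 0 to 2.49. Aldh1a3, a retinaldehyde dehydrogenase, had 54.7 to 2414 CPM in ER- cells (median 1347) and 6.69 to 210 in ER+ cells (median 22.1). It was lower in ER- than in ER+ cells only in TEB fragment T31, with 54.7 against 74.5 CPM. Krt18, a luminal keratin placed in both lists, had a log2 difference of 0.14 ± 0.09 and was higher in ER- cells in 8 of 15 fragments.

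The receptors on the ER+ list were the mirror image. Prlr, the prolactin receptor, had 5.47 to 276 CPM in ER- cells (median 92.6) and 694 to 1169 in ER+ cells (median 927). Pgr, the progesterone receptor, had 0 to 45.2 CPM (median 12.0) against 80.8 to 158 (median 124). Esr1, the estrogen receptor, had 0 to 47.2 CPM (median 2.32) against 24.6 to 154 (median 45.3), and in duct fragment D31 it was higher in ER- cells. The log2 differences were -3.28 ± 0.31, -3.55 ± 0.36 and -3.40 ± 0.52, and those of the co-activator Cited1 and the pioneer factor Foxa1 were -3.78 ± 0.43 and -3.43 ± 0.47.

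Short promoter stretches of marker genes are shown because each list holds a transcription factor gene of a family with a known core motif, Elf5 of the Ets family in the ER- list and Foxa1 of the forkhead family in the ER+ list. They come from RefSeq promoter windows (250 bases before to 50 after a start) on GRCm38.p6, are written 5′ to 3′ on the gene's strand, and capitals mark AGGAAG, an Ets-type core, or TGTTTAC, a forkhead-type core, or their complements. Kit (chr5:75574754-75574781), Wfdc18 (chr11:83708801-83708828), Ltf (chr9:111019142-111019169) of the ER- list and Esr1 (chr10:4611889-4611916), Pgr (chr9:8899783-8899810), Prlr (chr15:10223680-10223708) and Foxa1 (chr12:57546235-57546263, minus strand) of the ER+ list read as follows.
Kit: agagtgctaggAGGAAGaggatccaggg
Wfdc18: agaactaaataCTTCCTtgtatgaatat
Ltf: ttctgggctccAGGAAGctggcctctaa
Esr1: tggagagagagAGGAAGgccaccccctc
Pgr: tttgggcgggcCTTCCTagagcgccaac
Prlr: gtgcatcaaagTGTTTACtcgacccagat
Foxa1: tatactgctttGTAAACAaagtgagggcc
The Ets-type letters stood in windows of both lists, those of Kit, Wfdc18 and Ltf and those of Esr1, Pgr, Prlr and Cited1. The forkhead-type letters stood in those of Prlr and Foxa1. Outside the lists they stood in those of Il33, higher in ER+ cells, and of Atp6v1b1 and Tspan8, higher in ER- cells. On either strand, AGGAAG stood in a window of 36.7% of the 6743 matched genes among all those fitted. It stood in 38.3% of the 133 matched genes higher in ER- cells in every fragment and in 36.8% of the 228 higher in ER+ cells. These letters were thus common in all sets. TGTTTAC stood in 3.01%, 4.51% and 5.70% of the same sets (203, 6 and 13 genes). A match describes letters in a window and is not a binding site.

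Over all 8966 genes fitted, 179 (2.0%) were higher in ER- cells in every one of the 15 fragments and 303 (3.38%) were higher in ER+ cells in every fragment. The median log2 difference of all genes was -0.14. With each cell thinned to 5000 UMIs the counts were 100 and 131, and with at least 10 cells per sum 269 genes were higher in ER- cells in every fragment. Among genes outside the class lists with at least 100 CPM and the same direction in every fragment, the largest differences towards ER- cells were those of Csn3, Atp6v1b1, 3110079O15Rik, Sdpr, Kcnn4, Cytip, Ctgf, Sox10, Trim46, Adamts1, Sh3kbp1 and Tspan8, with log2 differences from 6.06 down to 4.59. Csn3, which encodes the milk protein kappa-casein (chr5:87925579-87932665 on GRCm38), had 842 to 5938 CPM in ER- cells (median 2613) and 3.35 to 151 in ER+ cells (median 37.0). Kcnn4, a calcium-activated potassium channel, had 131 to 844 CPM (median 587) against 0 to 87.6 (median 11.8). Sox10, a transcription factor of neural crest and glandular epithelia, had 71.4 to 210 CPM (median 138) against 0 to 20.9 (median 3.65). The ranges of the classes did not overlap for these 3 genes.

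Towards ER+ cells the largest differences were those of Il33, Krt6a, Plac8, Aldh3a1, Slc7a2, Il8, Muc13, Cdo1, Areg, R3hdml, Fxyd2 and Hp, with log2 differences from -4.08 to -3.67. Areg, the amphiregulin gene (chr5:91139599-91148432), had 1875 to 3190 CPM in ER+ cells (median 2437) and 16.4 to 638 in ER- cells (median 231). Krt6a, a keratin of stratified and luminal epithelium, had 459 to 1261 CPM (median 611) against 0 to 233 (median 22). Il33, an alarmin cytokine, had 80.0 to 457 CPM (median 207) against 0 to 159 (median 6.36), so the ranges of the classes overlapped although each fragment had the same order. The symbols 3110079O15Rik, Sdpr, Ctgf and Il8 had no match in GENCODE M21.

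**Figure D2:**
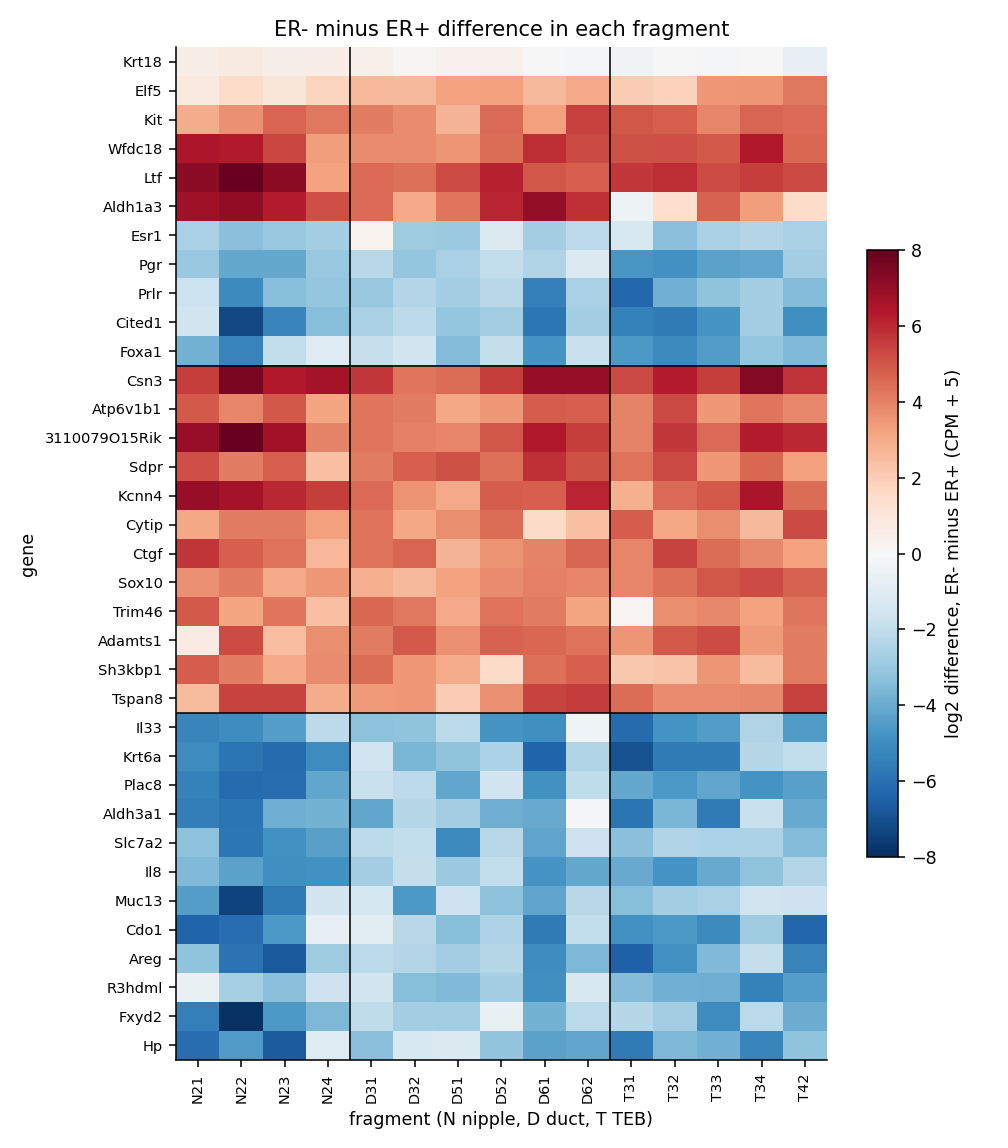
The log2 difference ER- minus ER+ of CPM + 5 (colour, red higher in ER- and blue higher in ER+) for the marker genes that chose the cells (top) and the 12 genes with the largest differences in each direction (middle and bottom), in rows, and for the 15 fragments in columns. Apart from Krt18, the marks against a row's direction are Aldh1a3 in T31 and Esr1 in D31.

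Milk and secretory genes stood higher in ER- cells of these pubertal glands. Of 12 members fitted, 11 had a positive log2 difference, with a median of 4.98 against -0.14 for all genes, but of these only Csn3 and Mfge8 (milk fat globule protein) were higher in every fragment. The other caseins and alpha-lactalbumin (Lalba) were sparse. Lalba had 93 UMIs in the pooled ER- sums, from 7 of 15 fragments, and 0 in the ER+ sums, a rate at least 74.1-fold higher against a floor of 3 UMIs over the group. Csn1s1, an alpha casein, had 0 to 311 CPM in ER- cells and was counted in 9 of 15 fragments, none of them nipple. Muc15 had 0 to 142 CPM (median 53.7) against 0 to 2.86.

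Beside the counts of list members that follow, the shares over all genes are 2.0% higher in ER- and 3.38% higher in ER+ cells in every fragment, and since the rule used this contrast nothing is read from them. Innate defence genes did not share a direction. Of 22 members fitted, 12 had a positive and 10 a negative log2 difference, and 4 were higher in ER- cells in every fragment (Lcn2, Tlr2, Nfkbiz and Cp) and 1 in ER+ cells (Wfdc2). Lcn2, the iron-scavenging lipocalin, had 1606 to 3564 CPM in ER- cells (median 2419) and 22.6 to 469 in ER+ cells (median 158). Wfdc2, a protease inhibitor of the same domain family as Wfdc18, had 19.1 to 925 CPM (median 318) against 1663 to 2825 (median 2280).

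Lineage transcription factors were likewise divided. Cebpb, Cebpd and Sox10 were higher in ER- cells in every fragment and Stat5a, which carries prolactin signals, in ER+ cells, out of 18 fitted. Stat5a had 0 to 69.9 CPM in ER- cells (median 33.3) and 96.1 to 182 in ER+ cells (median 143). Ehf and Elf3 belong to the same Ets subfamily as Elf5, and Ehf had a log2 difference of 2.12 ± 0.21 while that of Elf3 was -0.09 ± 0.39. Spdef, another Ets factor, had 0 to 11 CPM against 0 to 28.2. Of the genes known from hormone-sensing cells, 4 of 12 fitted were higher in ER+ cells in every fragment (Ly6a, Prom1, Areg and Stc2), while Cited4 was higher in ER- cells in every fragment, with 199 to 1062 CPM (median 540) against 3.35 to 84.6 (median 24.6).

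Paracrine ligands and receptors were each divided between the classes. Areg, Btc and Wnt5a, of 12 ligands fitted, were higher in ER+ cells in every fragment, and Csf1 and Tgfb2 in ER- cells. Egfr, the receptor that binds amphiregulin and betacellulin, was higher in ER- cells in every fragment, with 11.7 to 82.6 CPM (median 28.7) against 1.57 to 10.5 (median 2.90). Fgfr2, a receptor of fibroblast growth factors, was higher in ER+ cells in every fragment, with 40.1 to 214 CPM (median 127) against 0 to 53.9 (median 18.1). Of 20 receptors fitted, 12 had a positive and 8 a negative log2 difference. Notch pathway genes (6 fitted) held none that kept 1 direction in every fragment. In the retinoid and aldehyde list of 12 fitted, Crabp2, a retinoic acid carrier, was higher in ER- cells in every fragment (82.0 to 547 CPM against 0 to 134) and Aldh3a1 in ER+ cells.

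Of the other keratins, Krt23 was higher in ER- cells in every fragment and Krt6a and Krt4 in ER+ cells, out of 10 fitted. Among 22 surface and junction genes, Epcam, Cd44 and Cd81 were higher in ER- cells and Cd24a, Cd9 and Cldn10 in ER+ cells in every fragment. Cd24a, a sorting antigen of the luminal layer, had 571 to 1349 CPM in ER- cells (median 800) and 1596 to 3050 in ER+ cells (median 1943), without overlap. Of 30 cell cycle genes, 21 had a positive log2 difference (median 0.37 against -0.14 for all genes), and 0 kept 1 direction in every fragment. Their summed level was higher in ER- cells in 10 of 15 fragments, from 2224 to 8159 CPM against 1757 to 5740 in ER+ cells.

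Genes of other cell types were also counted in the luminal-like cells, fibroblast genes most. Summed over the fragment, 6 further basal genes had 6.69 to 182 CPM in ER- cells and 0.80 to 198 in ER+ cells. The 6 further fibroblast genes had 94.5 to 1744 CPM in ER- and 206 to 1626 in ER+ cells, with the nipple fragments highest in both (826 to 1744 and 1031 to 1626). The 4 endothelial genes of the class list had at most 1.73 CPM in ER- cells, with Pecam1, Kdr and Emcn at 0, and at most 3.31 in ER+ cells. The 4 further endothelial genes had at most 16.6 and 33.4 CPM. The 8 immune genes (7 in the table) had 13.9 to 77.5 CPM in ER- cells, with Cd3e, Cd3g and Cd79a at 0, and 10 to 67.0 in ER+ cells, with Cd3e and Cd79a at 0. Mast, adipocyte and red cell genes had at most 54.2, 8.63 and 7.16 CPM in ER- cells and at most 59.7, 45.99 and 5.86 in ER+ cells. The basal class list itself, which holds Krt14, summed to 1550 to 2778 CPM in nipple ER- cells. In ER- cells of duct and TEB it summed to 209 to 665 and 110 to 2121 CPM, so nipple and TEB overlapped. Immediate early and heat shock genes (16), which rise with tissue handling, summed to 3832 to 5616 CPM in ER- and 4338 to 7231 in ER+ cells.

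The ER- share of luminal-like cells was highest in nipple. It was 48.0%, 63.2%, 48.0% and 60.0% in the 4 nipple fragments (54.8% ± 7.95, SD), 20.5% to 37.8% in the 6 duct fragments (mean 31.2% ± 6.28) and 7.5% to 34.7% in the 6 TEB fragments (mean 23.2% ± 11). No nipple fragment overlapped a duct or TEB fragment. The nipple share exceeded that of TEB by 31.6 percentage points and that of duct by 23.6 points (two-sided exact permutation tests over fragments, p = 0.0095 for each, the smallest that 4 against 6 fragments allow, adjusted p = 0.014 over the 3 pairs). Duct and TEB differed by 8.03 points, which did not pass the test (exact permutation p = 0.169, adjusted p = 0.169). Binomial intervals of single fragments were wide, from 1.57% to 20.4% in TEB fragment T43 (3 of 40 cells) to 38.4% to 83.7% in nipple fragment N22 (12 of 19 cells). They cover counting error only. Shares depend on which cells survived dissociation, sorting and filters, which was not tested.

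**Figure D3:**
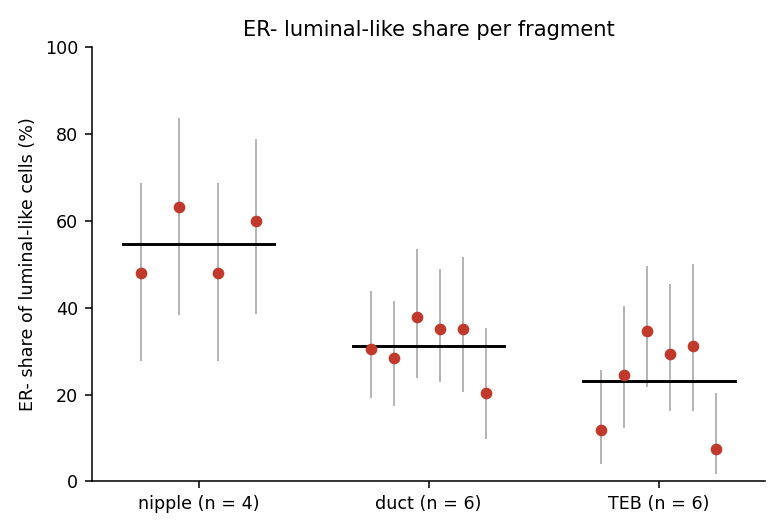
The ER- share of luminal-like cells (y axis, %) in each fragment (points) by location, with 95% exact binomial intervals (grey) and the mean over fragments (black line). The 4 nipple fragments sit at 48.0% to 63.2%, above all duct and TEB fragments.

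The ER- minus ER+ difference itself changed with location for 115 of 8966 genes (1.28%, edgeR quasi-likelihood test of the class by location terms with the fragment as a block, Benjamini-Hochberg adjusted p under 0.05), and 865 had an unadjusted p under 0.05. DESeq2 gave 232 genes, and the edgeR test without the filter on low counts 241. For 81 of the 115 genes the ER- minus ER+ difference was highest in nipple, for 27 in TEB and for 7 in duct. A gene could pass the filter on low counts through 1 class of 1 location alone, so nothing is read from this tally. In 81 of the 115 genes the sign of the difference was not the same in nipple and TEB. This count takes no account of standard errors, and some signs rest on differences near 0. With RLE in place of TMM scaling, the signs of Cstb, Fth1, Tagln2 and Tpm4 turned in TEB. Further signs turned with thinning, such as that of Cldn4 in nipple, from 0.05 ± 0.14 to -0.009. Among the 115, 59 also differed across locations within ER- cells and 51 within ER+ cells. Over all genes tested, 207 of 6593 differed within ER- cells and 524 of 9112 within ER+ cells. The ER+ test also used fragment T43, which had 37 ER+ cells. Of the chosen lists, 3 of 10 further keratins, 3 of 22 surface genes and 2 of 18 lineage factors passed this test, beside 1.28% of all genes. No innate defence gene (of 22) and no cell cycle gene (of 30) did, and at that share nothing is read from their absence.

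Lgals3, encoding the carbohydrate-binding galectin-3 (chr14:47367751-47386160), had 4978, 5891, 4200 and 4201 CPM in the ER- cells of the nipple fragments, 2258 to 3274 in duct and 1367, 874, 1201, 1033 and 532 in TEB. In ER+ cells it had 1906 to 2876 CPM in nipple, 2207 to 3845 in duct and 1832 to 3096 in TEB. The 3 locations did not overlap in ER- cells, and overlapped in ER+ cells. Its log2 difference ER- minus ER+ was 0.99 ± 0.14 in nipple, -0.07 ± 0.11 in duct and -1.35 ± 0.13 in TEB (adjusted p = 2.19e-08, edgeR). S100a6, a calcium-binding protein gene, had 6393 to 9639, 4159 to 4910 and 2110 to 3743 CPM in ER- cells of nipple, duct and TEB, again without overlap, with log2 differences of 1.13 ± 0.12, 0.06 ± 0.09 and -0.76 ± 0.10 (adjusted p = 1.84e-08). Anxa2, a membrane-binding annexin, had 3164 to 4270, 2251 to 3049 and 856 to 1456 CPM, with log2 differences of 1.07 ± 0.12, 0.35 ± 0.09 and -0.58 ± 0.10 (adjusted p = 2.19e-08).

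The Ets factor gene Elf3, near 0 over all fragments, differed in opposite directions by location. In ER- cells it had 328, 540, 543 and 311 CPM in nipple, 155 to 267 in duct and 98.4, 63.6, 97.6, 101 and 76.5 in TEB. In ER+ cells the order was turned, with 88.4 to 226 CPM in nipple, 104 to 210 in duct and 228 to 348 in TEB. The log2 difference was 1.69 ± 0.30 in nipple, 0.10 ± 0.24 in duct and -1.73 ± 0.27 in TEB (adjusted p = 3.28e-06). Mgst3, a microsomal glutathione transferase gene, had 217 to 411 CPM in ER- and 82.7 to 107 in ER+ cells of nipple but 92.2 to 275 and 384 to 521 in TEB (adjusted p = 3.27e-06). Its adjusted p in the edgeR location test was 0.111 within ER- and 6.18e-10 within ER+ cells.

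The simple epithelial keratins Krt7, Krt8 and Krt19 had their lowest ER- minus ER+ differences in TEB. Krt7 had 810 to 1147 CPM in ER- and 1984 to 3056 in ER+ cells of TEB, but 1479 to 1865 and 1083 to 1736 in nipple (log2 differences -1.40 ± 0.12 and 0.23 ± 0.13, adjusted p = 3.97e-08). The differences in nipple, duct and TEB were 0.94, 0.38 and -0.14 for Krt8 (adjusted p = 3.28e-06) and 0.08, -0.13 and -0.72 for Krt19 (adjusted p = 0.000259). Without the fragment block Krt8 and Krt19 missed the threshold (adjusted p = 0.174 and 0.227). Those of Krt18, which is on both class lists and is given with no test, were 0.58, 0.16 and -0.22. Tmsb4x, the actin-binding thymosin beta-4, followed the same order (0.31, -0.39 and -0.86, adjusted p = 1.33e-06). Its adjusted p in the edgeR location test was 0.579 within ER- and 0.000139 within ER+ cells. With RLE scaling or each cell thinned to 5000 UMIs, the differences of all 8 leading genes kept their signs in nipple and in TEB, while that of Krt7 in duct turned from -0.06 to 0.10 with thinning.

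**Figure D4:**
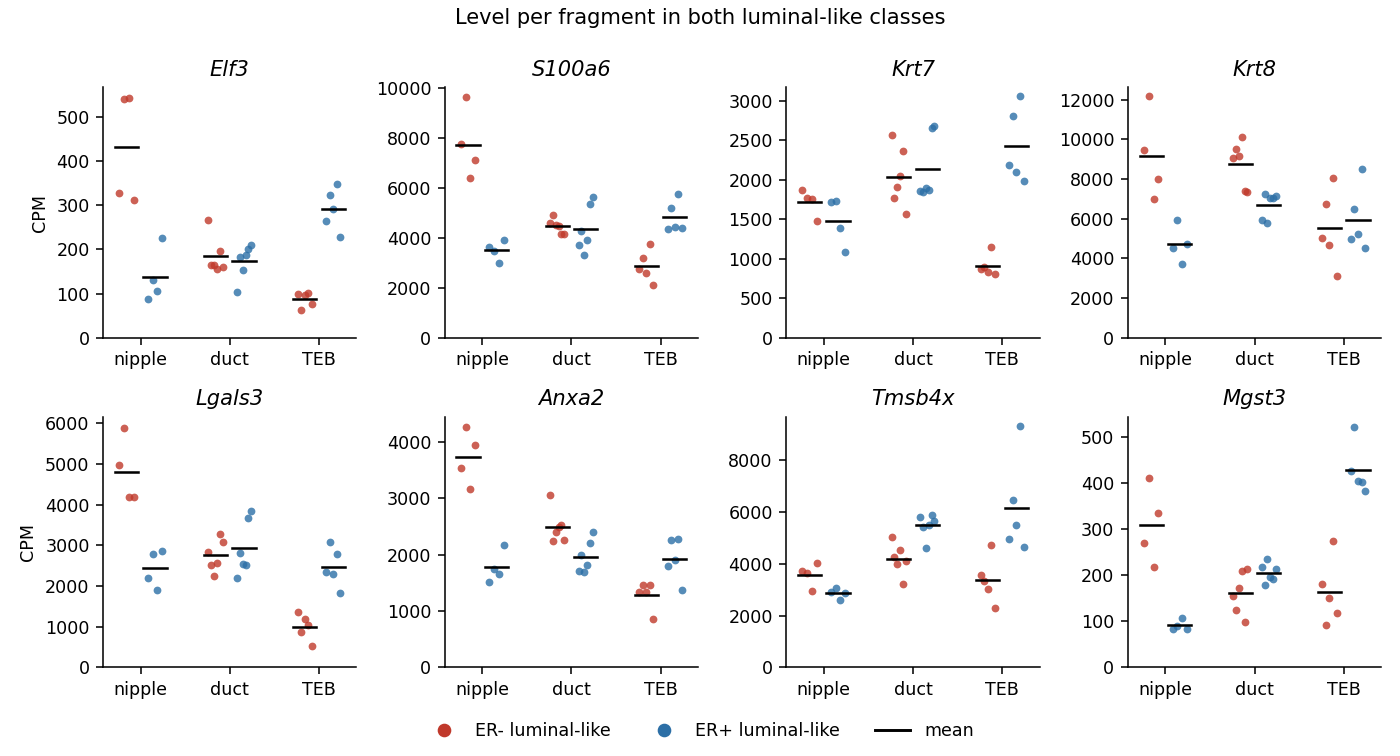
CPM (y axis, from 0) in the ER- (red) and ER+ (blue) sums of each fragment by location, with the mean as a black line, for the 8 genes with the smallest p in the class by location test. In ER- cells Lgals3 runs from 532 to 1367 CPM in TEB to 4200 to 5891 in nipple, while the ER+ points overlap across locations.

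Some signalling genes also passed. Btc, the betacellulin gene (chr5:91357261-91402994), had 0 CPM in the ER- cells of all 4 nipple fragments, 11.6 to 42.8 in duct and 32.8, 3.18, 27.7, 34.7 and 48.0 in TEB, while ER+ cells had 60.2 to 335 CPM throughout. In nipple its rate in ER+ cells was at least 63.1-fold higher (286 against 0 UMIs, floor of 3 UMIs over the group), and the adjusted p was 0.00461. After thinning the adjusted p was 0.390. Ptn, the pleiotrophin gene, had 64.2 to 309 CPM in ER- cells of all locations. In ER+ cells it had 3.35 to 92.1 CPM in nipple and 565 to 1459 elsewhere (adjusted p = 0.00898), so that the location moved the ER+ level. It missed the threshold without nipple fragment N23 or N24 (adjusted p up to 0.061).

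Vdr, the vitamin D receptor, had log2 differences of 1.37, 2.83 and 4.36 in nipple, duct and TEB (adjusted p = 0.0297), and missed the threshold without any of T32, T33, N21 or N23 (up to 0.107) and after thinning (0.330). Hes1, a Notch-induced repressor, had differences of 1.22, 0.75 and -0.22 (adjusted p = 0.000611). In the edgeR location test within 1 class, its adjusted p was 0.198 in ER- and 0.000273 in ER+ cells. Ly6d, a surface antigen gene, had 1862, 1599, 1967 and 1026 CPM in ER- cells of nipple, 6.01 to 246 in duct and 54.1 to 584 in TEB (adjusted p = 0.0333). That call was lost without any of 10 of the 15 fragments (adjusted p up to 0.114). The chaperone gene Hspa8 had 404 to 718 CPM in ER- and 950 to 1475 in ER+ cells of nipple (adjusted p = 0.000866).

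Within ER- cells, 207 of 6593 genes (3.14%) differed across the 3 locations (edgeR quasi-likelihood test), and 893 had an unadjusted p under 0.05. DESeq2 gave 376 genes, and the test without the filter on low counts 455. The mean level was highest in nipple for 126 of the 207, in duct for 42 and in TEB for 39. Some of these genes passed the filter on low counts through the nipple fragments alone, so nothing is read from this tally. Those with the smallest p were Lgals3, S100a6, Anxa2, S100a10, Fcgbp, Col1a2, Col6a1 and Col1a1. Fcgbp, which encodes an IgG Fc-binding mucus protein, had 206, 84.9, 475 and 53.9 CPM in nipple, 0 to 23.2 in duct and 0, 0, 0, 0 and 3.89 in TEB. It passed the filter on low counts through the nipple fragments alone, as did Col6a1, so their p is not given. ER+ cells had at most 4.35 CPM of Fcgbp in any fragment, so the high level was seen in nipple ER- cells. Col1a1 is on the fibroblast list that helped to class the cells. Col1a2 had 234 to 455 CPM in ER- and 308 to 445 in ER+ cells of nipple, against 14.3 to 83.3 and 20.3 to 86.6 elsewhere, beside the fibroblast list sums given above, whose part in these calls was not tested.

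Of the markers that chose the cells, levels by location are given with no test. Wfdc18 was highest in nipple, with 11618, 12355, 10158 and 11412 CPM against 4661 to 9277 in duct and 5412 to 8594 in TEB. Aldh1a3 had 952 to 1608 CPM in nipple, 1347 to 2414 in duct and 54.7 to 710 in TEB, so the TEB fragments were below all others. Ltf (231 to 350 CPM in TEB and 1028 to 1880 in nipple) and Elf5 (21.9 to 104 in TEB and 3.49 to 12.2 in nipple) did not overlap between TEB and nipple, in opposite orders.

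Csn3, which the rule did not use, was highest in TEB, with 842, 1545, 1356 and 1065 CPM in nipple, 2085 to 3151 in duct and 5938, 4944, 3328, 4779 and 2613 in TEB (adjusted p = 2.81e-05). It missed the threshold with classes taken from clusters (adjusted p = 0.109) and with only members 0.25 above the next class.

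Mfge8, another milk gene past the threshold, was highest in nipple. It had 1200 to 2253, 1081 to 1392 and 462 to 817 CPM in nipple, duct and TEB (adjusted p = 7.18e-05, edgeR). Butyrophilin (Btn1a1) had 44.1 to 112, 9.07 to 54.7 and 0 to 9.48 CPM. It passed the filter on low counts through the nipple fragments, so its order of locations is not read as a result. Of the milk list, 3 of 12 tested members passed, Btn1a1 among them, and of the lineage factors 4 of 16, beside 3.14% of all genes tested. Elf3 and Sox9 were highest in nipple (Sox9 log2 difference nipple minus TEB 1.41, adjusted p = 0.00469), while Ehf and Cebpd were lowest in duct (adjusted p = 0.0103 and 0.000884). Tnfrsf11b, the decoy receptor for the ligand RANKL, had 41.9, 26.8, 46.8 and 83.2 CPM in nipple ER- cells and 0 in every duct and TEB fragment, so it too passed the filter through nipple alone and its p is not given.

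Cell cycle genes were split, with 5 of 27 tested members past the threshold, beside 3.14% of all genes tested. The replication helicase genes Mcm5 and Mcm7 were highest in TEB. Mcm5 had 0, 4.47, 7.02 and 0 CPM in nipple, 0 to 99.1 in duct and 98.4, 63.6, 85.4, 107 and 211 in TEB (adjusted p = 0.00331), and Mcm7 had 0 to 16.4, 9.27 to 88.0 and 66.8 to 159 CPM (adjusted p = 0.00277). Cdk4 (adjusted p = 0.0195, up to 0.0737 without N23 or N24) and Tubb5 (adjusted p = 0.0365, up to 0.106 and lost without any of 6 fragments) were also highest in TEB, and cyclin D1 (Ccnd1) was highest in nipple, with 299 to 576 CPM against 116 to 335 in duct (adjusted p = 0.0491, over the threshold without any of 11 fragments). The sum of all 30 genes overlapped between locations, with 2224 to 3984 CPM in nipple, 2657 to 5453 in duct and 3438 to 8159 in TEB.

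Krt14 in nipple ER- cells was chosen for description after its values were seen. This basal keratin is on the list of the basal class, so a cell high in it needed higher ER- markers to become a member. At least 10 UMIs of Krt14 were counted in 33 of 51 ER- cells of nipple, 3 of 95 of duct and 2 of 57 of TEB, and in 5 of 43 ER+ cells of nipple. By fragment the nipple shares were 83.3%, 50%, 75% and 53.3%, and no duct or TEB fragment was above 21.4%. The level was 2770, 1720, 1576 and 1410 CPM in nipple, 26.2 to 454 in duct and 580, 12.7, 2.22, 72.6 and 13 in TEB, without overlap between nipple and the rest, given with no test since the rule used this gene.

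Other basal genes did not follow Krt14. Krt5, its usual partner, reached 10 UMIs in 0 of the 203 ER- cells and had 2.45 to 10.5 CPM in nipple, and Krt17 had 83.8 to 246 CPM there against 37.9 to 1061 elsewhere. The 6 further basal genes summed to 6.69 to 20.7 CPM in nipple ER- cells, less than the 30.2 to 182 of duct. The nipple range overlapped the 9.77 to 56.5 CPM of TEB ER- cells. Genes of the upper epidermis, listed after these values were seen, were counted in nipple ER- cells as 0 UMIs of Krt1, Krtdap, Lor and Ivl and 28 of Krt10. With each cell thinned to 5000 UMIs, 30 of 50 nipple ER- cells had at least 3 Krt14 UMIs, against 5 of 95 in duct, 2 of 57 in TEB and 3 of 43 nipple ER+ cells. No doublet caller was run.

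**Figure D5:**
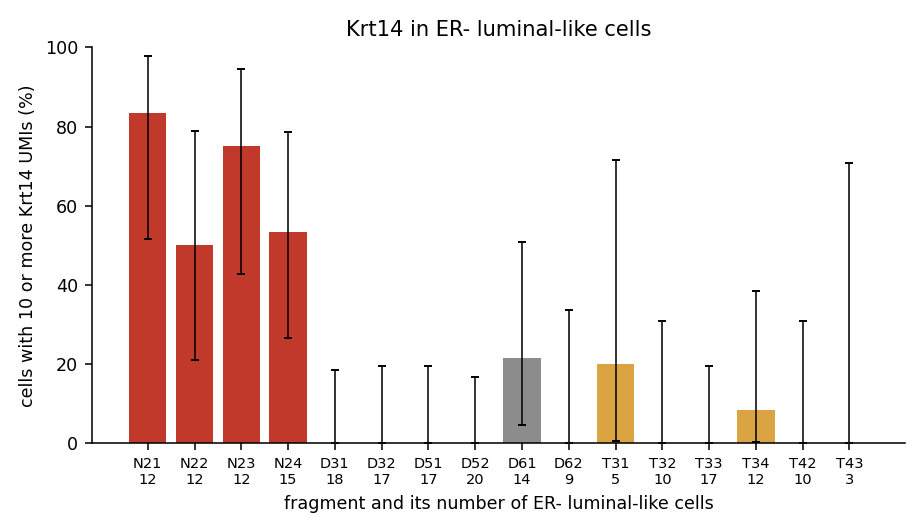
The share of ER- luminal-like cells with at least 10 Krt14 UMIs (y axis, %) in each of the 16 fragments (bars, nipple red, duct grey and TEB yellow), with 95% exact binomial intervals and the number of cells under each name. The nipple fragments stand at 50% to 83.3% and the others at 0% to 21.4%.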

How the data were processed

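The data are UMI counts per gene and cell from plate-based 3' SMART-seq of 16 fragments. The submitters' processing notes name Trim Galore, FastQC, UMI-tools, STAR, featureCounts and mm10, and the authors deposited whole-number counts without normalization (17721 genes and 67 ERCC spike-ins, the latter 0.758% of UMIs). Reads of near-identical genes could be split or lost in alignment.

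Cells were kept if ERCC made up no more than 5% of their UMIs and they had 5000 to 120000 UMIs in 200 to 6000 detected genes. They were scaled to 10000 UMIs without ERCC, log-transformed and classed by marker lists. Members, gene lists and tests were chosen with earlier results of these data known. For each fragment, the cells of a class were added up where it had 5 or more. Models were those of edgeR 4.0.16 under R 4.3.3, with robust quasi-likelihood dispersions after filterByExpr and TMM. The class by location fit had the fragment as a block. Adjusted p-values are Benjamini-Hochberg values over all genes fitted, with a threshold of 0.05, and ± after a log2 difference is a standard error. CPM values are those of the class by location fit, and the heat map adds 5 CPM. Shares were compared by exact permutation with scipy 1.17.1. Clusters came from Seurat 5.3.0 (2000 variable genes, 14 components, 12 clusters).

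Named genes were the ER- and ER+ markers, the 12 largest differences each way among genes of at least 100 CPM that kept 1 direction, the 4 largest of each list and those past the class by location test, the 8 with the smallest p of each location test (at least 50 CPM) and the highest check gene of each other cell type. Krt14, its partners and list members past the location test were added after their values were seen. Positions are from GENCODE M21 on GRCm38, by symbol. The scripts were tested on simulated data. Of the listed genes, 10 are not analysed here, and a further result of the location tests is not reported here. The results were recomputed with up to 10% ERCC allowed, with cells of 10000 or more UMIs, with a margin of 0.25 between classes, thinning to 5000 UMIs, class scores without Krt18, Seurat clusters, at least 10 cells, DESeq2 1.42.0, RLE, no low-count filter, no fragment block, a block on the label number and leaving out each fragment. Floors are 3 UMIs, and intervals are at the 95% level.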

Additional observations from a re-analysis of the deposited data

Results flagged for a closer look

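Among 147 groups of 4 to 6 fragments examined, 9 held a fragment standing apart from the rest by Dixon's criterion, which chance gives in about 1 in 20 groups. Values are log2 differences ER- minus ER+ of CPM + 5. Duct fragment D61 stood apart for 2 ER+ markers, Prlr (-5.47, others -3.03 to -2.25) and Cited1 (-5.78, others -3.12 to -2.09). TEB fragment T31, with 5 ER- cells, did so for Trim46 (0.14, others 3.22 to 4.26), duct fragment D31 for Elf3 (1.32, others -0.39 to 0.09) and nipple fragment N24 for Lgals3 (0.55, others 1.08 to 1.18). Among the collagen genes, nipple fragment N21 stood apart for Col1a2 (-0.39, others -0.01 to 0.03), N23 for Col6a1 (0.20, others 1.48 to 1.58), and duct fragment D62 for Col1a2 (-0.52, others -0.16 to 0.03) and Col1a1 (0.74, others -0.24 to 0.05).

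The difference between the classes itself differed between locations, by the edgeR test of the class by location terms, for S100a6 (adjusted p = 1.84e-08), Lgals3 (2.19e-08), Anxa2 (2.19e-08), Krt7 (3.97e-08), Tmsb4x (1.33e-06), Mgst3 (3.27e-06), Elf3 (3.28e-06) and Krt8 (3.28e-06).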

How the results depend on the processing

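The count of genes whose class difference changed with location (115) became 241 without the low-count filter, 232 with DESeq2 and 51 with a replicate block on the label number, which could use only 4 duct and TEB fragments (82 in those fragments without it). Leaving out 1 fragment gave 85 to 124. The count within ER- cells (207) became 455, 376 and 50 (5 without the block in the same fragments), and 146 to 232 without 1 fragment. Genes higher in ER- cells in every fragment (179) became 100 with thinning and 269 with at least 10 cells per sum, and those higher in ER+ cells (303) became 131 with thinning. Without 1 fragment they ranged from 175 to 216 and from 301 to 358. Share differences ranged from 28.5 to 33.9 points (nipple minus TEB) and 20.8 to 25.9 (nipple minus duct), with adjusted p up to 0.0357, and from 4.89 to 10.3 (duct minus TEB), with adjusted p from 0.0779 to 0.338. Pairing the shared label numbers gave a duct minus TEB difference of 11.3 points with no test. The deviations of same-numbered fragments correlated at 0.00079 (D31 and T31) and 0.0158 (D32 and T32). These ER- sums hold few cells, so the correlations cannot show what same-numbered fragments share. Of 313 recomputed class differences of 35 genes, 313 kept their sign, 295 moved by less than 1 SD and 18 by more. Krt8 lost its call without the fragment block (adjusted p = 0.174). The cause of these changes was not tested.

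The depth of 5 to 20 ER- cells per fragment limits low genes such as Elf5 and Lalba. Nipple ER- cells had fewer UMIs than nipple ER+ cells, and the part of this in the location results was not tested beyond the thinned alternative.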

Other observations

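Some sparse secreted factors were counted mostly in ER- cells. Csn2, encoding beta-casein, had 75 UMIs in ER- and 2 in ER+ cells over 15 fragments (rate ratio 89.7, counting interval 24 to 754), of which 41 came from a single nipple fragment. Rspo1, an enhancer of Wnt signalling, had 39 against 2 UMIs (ratio 46.6, interval 12.1 to 399). Wap, the whey acidic protein, had 8 against 0 UMIs, all from 2 duct fragments, a rate at least 6.38-fold higher against a floor of 3 UMIs over the group. Calca had 3 against 4 UMIs, so no fold is given. These intervals and floors cover counting error only.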
